A study of Homo sapiens with 18 samples.

Results

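PARP9, its partner DTX3L and 5 further PARPs that attach single ADP-ribose units (PARP14, PARP10, PARP12, PARP4 and PARP8) were followed by RNA-seq in ovarian cancer cell lines. All 7 members were taken by gene symbol and all 7 were present among the 12853 genes of the expression table. PARP9 and DTX3L share a promoter region and were selected on their higher expression in all 3 resistant lines, so their differences between sensitive and resistant lines are given as a description without a test, while the other 5 members were tested. The 18 libraries came from 6 lines with 3 replicates each, grown in RPMI-1640 with glutamine and 10% fetal bovine serum, with no treatment named in the labels. A2780, a platinum-sensitive line labelled as endometrial/ovarian cancer, was set against CP70, a resistant derivative made from it in vitro. PEA1 (sensitive) and PEA2 (resistant) are both ascites-derived lines of 1 patient whose tumour was a high-grade serous ovarian cancer. PEA1 dates from before any platinum was given, and PEA2 from the time the disease returned and no longer responded. PEO1 (sensitive) and PEO4 (resistant) came from another such patient, before and after resistance appeared in the clinic. Unlike PEA1, PEO1 was taken after platinum-based chemotherapy, as was PEO4. Each condition is therefore a single line, and in each pair resistance cannot be told apart from any other difference between 2 lines. The labels do not say whether replicates were separate cultures, so the p-values measure the spread between these libraries, which may be technical.

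Mono-ADP-ribosylation is the transfer of a single ADP-ribose unit from NAD to a protein or nucleic acid, in contrast to the long chains built by PARP1. DTX3L is a ubiquitin ligase of the Deltex family that binds PARP9, a protein with macrodomains that recognise ADP-ribose, and the complex acts at sites of DNA damage and in the antiviral response. PARP9, DTX3L, PARP14, PARP10 and PARP12 are known as interferon-induced genes, whereas PARP4 is known as the PARP of the vault particle and PARP8 is less well characterised.

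The promoter sequences are shown first because PARP9 and DTX3L start within bases of each other on opposite strands. In the RefSeq promoter windows of GRCh38.p14 (250 bases before to 50 bases after a gene start), 5 of the 7 members had windows: 2 for PARP9, 1 each for DTX3L, PARP14 and PARP12, and 3 for PARP8. PARP10 and PARP4 had none there. The nearest PARP9 and DTX3L starts lay 38 bases apart. Each window was searched on both strands for an ISRE-like motif, 2 copies of GAAA with any 2 bases between them, which resembles the element that interferon-activated factors bind, and for a GAS-like motif, TTC and GAA with any 3 bases between them, which resembles the gamma-interferon activation site. The capitals below mark the ISRE-like match, and each stretch is written 5′ to 3′ on the strand of its gene.
PARP9, chr3:122564307-122564366, minus strand: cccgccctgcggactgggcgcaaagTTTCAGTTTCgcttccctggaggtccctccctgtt
DTX3L, chr3:122564307-122564366, plus strand: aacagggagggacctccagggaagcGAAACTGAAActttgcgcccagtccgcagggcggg
PARP14, chr3:122680785-122680844, plus strand: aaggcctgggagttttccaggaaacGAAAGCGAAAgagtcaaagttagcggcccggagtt
PARP12, chr7:140062927-140062986, minus strand: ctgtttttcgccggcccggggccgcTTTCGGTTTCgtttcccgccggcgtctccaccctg

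The PARP9 and DTX3L matches were the same 10 bases, chr3:122564332-122564341, read from opposite strands. The match ended 32 bases before the PARP9 start nearest to DTX3L and covered the DTX3L start, from 6 bases before it to 3 bases after it. In PARP14 the match lay 29 to 20 bases before the start, and a GAS-like match lay 40 to 32 bases before it without overlapping the first. In PARP12 the match ended 1 base before the start. ISRE-like letters were thus found in 4 of the 5 members with a window (PARP9, DTX3L, PARP14 and PARP12), and in none of the 3 PARP8 windows. Over all 27305 genes with a window, 4.38% held an ISRE-like match (3.57% of 35116 windows) and 9.38% a GAS-like match. A match of this kind describes letters and not a bound site. None of 10 other ADP-ribosyltransferase genes and none of 11 interferon receptor and STAT-IRF genes with a window held an ISRE-like match, while 2 of 7 chromosome 3 neighbours (FAM162A and HSPBAP1) did.

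In the hg19 (GRCh37) GENCODE annotation, PARP9 (ENSG00000138496) lies on the minus strand at chr3:122246771-122283424 and DTX3L (ENSG00000163840) on the plus strand at chr3:122283185-122294050, with 240 bases in common. PARP14 (ENSG00000173193) follows on the plus strand at chr3:122399686-122449687, so the 3 genes span 203 kb. The others lie on different chromosomes: PARP10 (ENSG00000178685) at chr8:145051321-145086940, PARP12 (ENSG00000059378) at chr7:139723549-139762751 and PARP4 (ENSG00000102699) at chr13:24995069-25086916, all on the minus strand, and PARP8 (ENSG00000151883) at chr5:49961733-50142353 on the plus strand. The library kit keeps the strand, but the strand setting of the read counting is not given in the sources used here. Reads in the bases shared by PARP9 and DTX3L, and those where PARP4 overlaps TPTE2P6 on the opposite strand, may therefore be split uncertainly. In GENCODE, PARP10 also overlaps GRINA and SPATC1 on the opposite strand. The gene start deposited with the counts is 145058526 for PARP10, however, and both genes lie upstream of it, from 145064224 and 145086582. PARP8 overlaps a long noncoding RNA gene on the opposite strand, which is not in the expression table. PARP4 also has 2 named pseudogenes.

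The libraries held between 1344098 and 7067336 reads on the genes of the table, with the PEA1 libraries the shallowest, and 3 reads, taken as the smallest level a library can show, corresponded to between 0.452 and 2.18 CPM (read counts scaled to library size). Levels below are log2 CPM as deposited, with 0.5 reads added to each count. The labelled cell types were checked against marker lists. The summed level of 5 epithelial markers (EPCAM, KRT8, KRT18, KRT19 and CDH1) was 2.24 to 3.13 CPM in A2780 and 88.9 to 95.8 CPM in CP70, against 153 to 200 CPM in PEA1, 2693 to 2907 in PEA2, 2847 to 2924 in PEO1 and 2949 to 3267 in PEO4. The Müllerian and serous markers PAX8, WT1, MUC16, MSLN and SOX17 summed to at most 0.258 CPM in A2780 and 1.19 CPM in CP70, but to at least 284 CPM in each serous library. The PEA1 sum was mostly PAX8 (mean 329.5 CPM), with WT1 at 6.1, SOX17 at 3.1, MUC16 at 1.7 and MSLN at 0.96 CPM. SOX17 averaged 0.05 CPM in PEO1 and 0 in PEO4. PTPRC (20.2 to 25.1 CPM) and CDH5 (25.3 to 36.1 CPM), markers of leukocytes and endothelium, exceeded 3 reads in PEA2 alone, where they were the only genes of their lists in the table. Of the 3 fibroblast markers in the table, COL1A1 averaged 395 CPM in PEA1, where DCN and LUM were at 0, and CP70 held DCN at 23.5 CPM and LUM at 11.3 CPM. The part of these markers in the differences below was not tested. In bulk RNA, fewer cells of a type and less RNA per cell cannot be told apart.

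PARP9 was lowest in A2780 and highest in PEO4. In A2780 it was nearly silent, at log2 CPM of -0.52, 0.75 and 1.30, from 2, 6 and 5 reads. In CP70 it stood at 4.58, 4.22 and 4.44. All CP70 libraries were far above all A2780 libraries, and the log2 fold change (log2FC, resistant minus sensitive) was 3.90 with a standard error (SE) of 0.30, or 14.7-fold on mean CPM. The summed reads, 13 in A2780 and 305 in CP70, gave a ratio of 16.1. Its exact 95% counting interval was 9.27 to 30.6, which covers counting error only. After quantile normalization the log2FC was 2.64. The 3 PEA1 libraries were at 4.15, 4.78 and 4.47 and the PEA2 libraries at 6.86, 6.30 and 6.33, a log2FC of 2.03. The PEO1 libraries were at 5.43, 5.21 and 5.42 and the PEO4 libraries at 7.71, 7.63 and 7.59, a log2FC of 2.29. No resistant library overlapped a sensitive one in any pair. The order of the line means was PEO4, PEA2, PEO1, PEA1, CP70 and A2780, in which only PEA1 and CP70 overlapped.

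DTX3L, the ubiquitin ligase read from the other strand, was also lowest in A2780 but was highest in PEA2. It was at 1.81, 2.17 and 2.09 in A2780, from 12, 17 and 9 reads, and at 5.68, 5.67 and 5.67 in CP70. That log2FC of 3.65 (SE 0.14) stood beside 3.90 for PARP9 in the same pair, and was 3.02 after quantile normalization. In PEA1 it was at 6.63, 6.49 and 6.71 and in PEA2 at 8.06, 7.81 and 8.15, a log2FC of 1.40. In PEO1 it was at 6.57, 6.12 and 6.66 and in PEO4 at 7.61, 7.68 and 7.51, a log2FC of 1.15. The resistant libraries again lay above the sensitive ones in each pair, as did those of 28.6% of all genes for A2780 and CP70, 31.8% for the PEA lines and 27.8% for the PEO lines. Both genes were chosen for this direction, so nothing is read from it. The DTX3L line means ran from PEA2 through PEO4, PEA1, PEO1 and CP70 to A2780, and only PEA1 and PEO1 overlapped. Of all genes, 1.59% were higher in all 3 resistant lines at a false discovery rate (FDR) below 0.05.

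**Figure D1:**
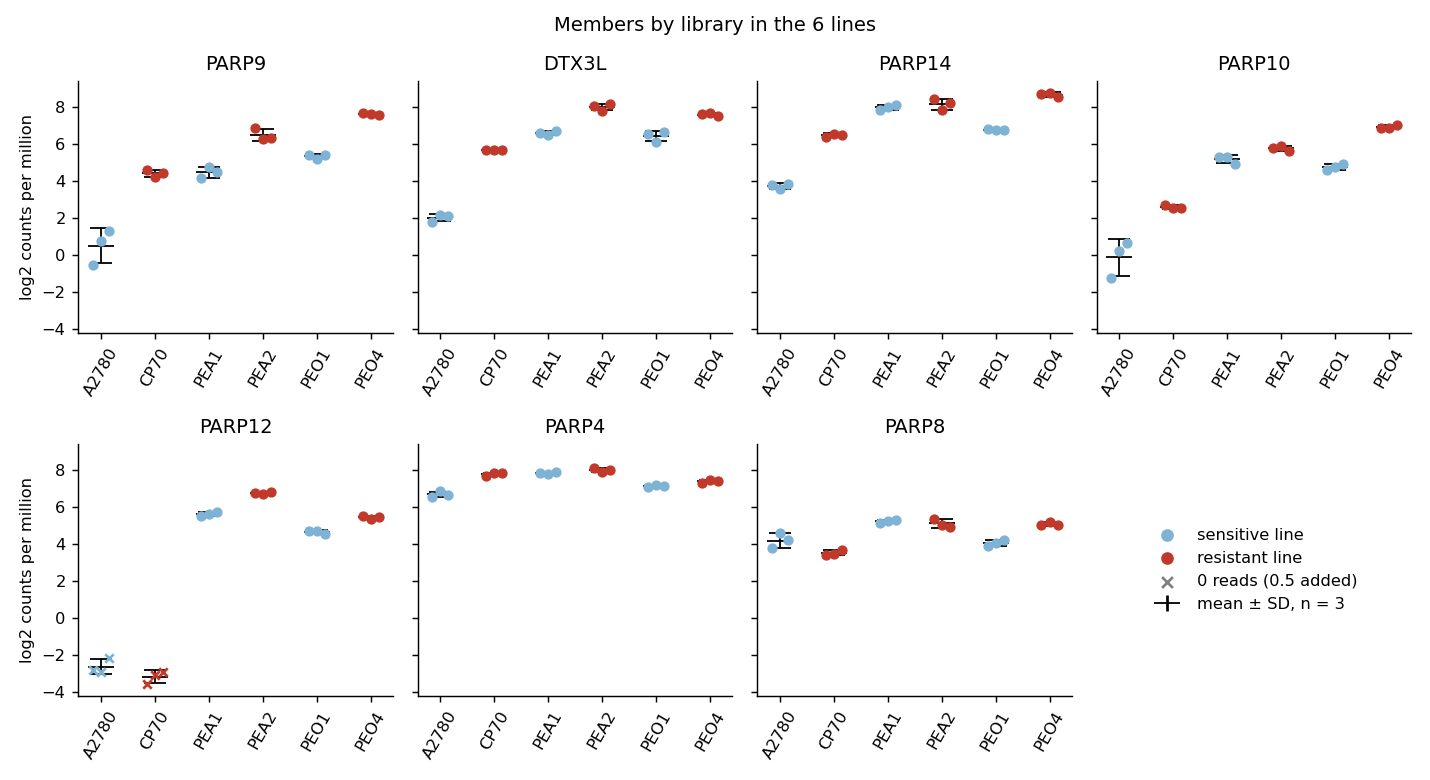
Log2 CPM of each member (y axis) in the 3 libraries of each line (x axis), with sensitive lines in blue and resistant lines in red, the mean as a bar and the SD as whiskers (n = 3), and crosses for libraries with 0 reads. PARP9, DTX3L, PARP14 and PARP10 were lowest in A2780, PARP12 had 0 reads in A2780 and CP70, and PARP4 spanned the narrowest range, from 6.67 in A2780 to 8.01 in PEA2.

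The balance between PARP9 and DTX3L was not the same in all lines. The log2 difference DTX3L minus PARP9, in which gene length enters as a constant, was 1.51 ± 0.77 (SD, n = 3) in A2780, 1.26 ± 0.18 in CP70, 2.14 ± 0.39 in PEA1 and 1.51 ± 0.30 in PEA2. It was 1.09 ± 0.17 in PEO1 and -0.04 ± 0.08 in PEO4. The 3 PEO4 libraries (-0.10 to 0.04) lay below every other library, the nearest being an A2780 library at 0.79 whose PARP9 count was 5 reads. Per kilobase of merged exons, PARP9 was at 22.4 CPM per kb and DTX3L at 33.6 CPM per kb in PEO4, against 4.58 and 15.3 CPM per kb in PEO1. Over the 18 libraries, which are 6 lines with 3 libraries each, Pearson's r between the 2 genes was 0.95, and it was 0.96 over the 6 line means. Both genes were chosen for rising in all 3 resistant lines, so nothing is read from this r. A gene outside the members, MYO6, reached 0.97 with PARP9 over the 18 libraries.

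**Figure D2:**
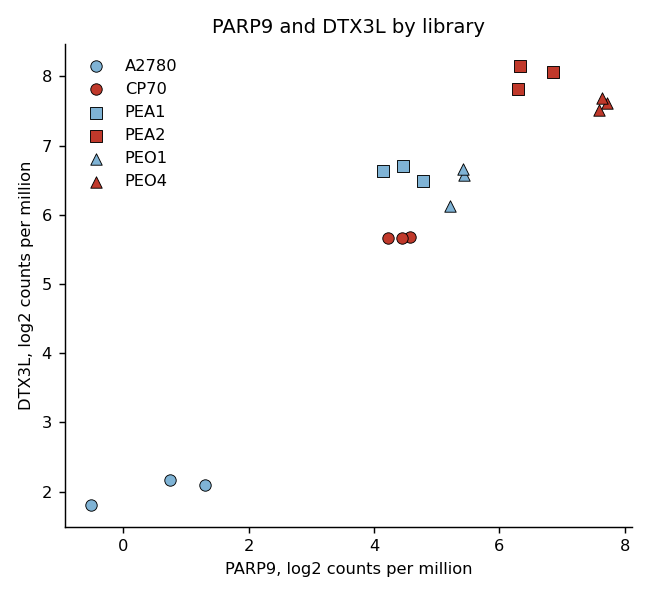
DTX3L (y axis) against PARP9 (x axis), both as log2 CPM, with 1 point for each of the 18 libraries, colour for sensitive (blue) or resistant (red) and shape for the pair. The A2780 libraries sit apart at the lower left, and the PEO4 libraries lie to the right of the others, with PARP9 between 7.59 and 7.71.

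PARP14, a macrodomain PARP on the same stretch of chromosome 3, rose in CP70 and in PEO4 but did not pass the test in PEA2. In A2780 it was at 3.79, 3.58 and 3.86, and in CP70 at 6.39, 6.56 and 6.52. The log2FC was 2.74 (SE 0.12, FDR = 3.64e-13, limma), 6.76-fold on mean CPM. In PEO1 it was at 6.81, 6.75 and 6.79 and in PEO4 at 8.72, 8.77 and 8.53, a log2FC of 1.89 (FDR = 3.68e-10). Its PEA1 libraries (7.83, 8.02 and 8.12) were already as high as the PEA2 libraries (8.45, 7.86 and 8.21), and the groups overlapped. The PEA log2FC was 0.18 (FDR = 0.215), with a 95% interval from -0.08 to 0.44. It moved to 0.34 (FDR = 0.0175) without the second PEA2 replicate and to -0.001 after quantile normalization.

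PARP10, a mono-ADP-ribosyltransferase with a ubiquitin-binding region, passed in the same pairs as PARP14. It had 1, 4 and 3 reads in A2780 (-1.25, 0.22 and 0.65) and 40, 24 and 22 reads in CP70 (2.73, 2.54 and 2.56). The summed reads, 8 and 86, gave a ratio of 7.37 with an exact 95% counting interval of 3.58 to 17.6, which covers counting error only. The fitted log2FC was 2.74 (SE 0.31, FDR = 4.67e-07). It was 1.44 after quantile normalization and 2.18 without the first A2780 replicate, and the call held in both. In the PEO pair PARP10 rose from 4.62, 4.74 and 4.92 to 6.89, 6.89 and 7.04, a log2FC of 2.18 (FDR = 1.12e-05). In the PEA pair the resistant libraries (5.80, 5.90 and 5.62) lay above the sensitive ones (5.33, 5.33 and 4.94), but the log2FC of 0.57 did not pass (FDR = 0.12, 95% interval -0.08 to 1.22). That call depended on the fit, since the FDR was 0.00454 with voom weights and 0.0165 with each pair fitted alone. All 3 pairs shared the SE of 0.31, and the SD of PARP10 was 0.995 in A2780, against 0.22 in PEA1 and 0.14 in PEA2.

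PARP12, a zinc finger PARP, was absent from the reads of both A2780 and CP70. All 6 of those libraries had 0 reads, which allows up to 0.491 to 1.34 CPM per library (3 reads), and no fold is given for that pair. In the serous lines it was well above this floor. PEA1 stood at 5.53, 5.63 and 5.72 and PEA2 at 6.75, 6.71 and 6.79, a log2FC of 1.12 (SE 0.27, FDR = 0.00124). PEO1 stood at 4.68, 4.72 and 4.55 and PEO4 at 5.50, 5.33 and 5.45, a log2FC of 0.78 (FDR = 0.0258). The PEO call did not hold when 1 library was left out in 5 of 6 cases: the FDR was 0.0571 without PEO1 replicate 1, 0.0523 without PEO1 replicate 2, 0.0807 without PEO1 replicate 3, 0.0765 without PEO4 replicate 1 and 0.0673 without PEO4 replicate 3. That PEO call held in 8 of 13 alternatives, with a lowest FDR of 1.05e-05, and the PEO1 and PEO4 libraries did not overlap. The SDs were 0.09 in PEO1 and 0.09 in PEO4, against 0.43 and 0.36 for the 0 read values of A2780 and CP70 in the same fit. Those 0 read values differ only through library size, and their spread enters the SE of 0.27 that the PEA and PEO pairs share. PARP12 was the only tested member that passed in the PEA pair in the fit of all 18 libraries without voom weights. With those weights PARP10 passed as well (FDR = 0.00454).

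PARP4, the vault PARP, was the most even member. It rose from 6.55, 6.85 and 6.62 in A2780 to 7.69, 7.81 and 7.84 in CP70, a log2FC of 1.11 (SE 0.09, FDR = 2.54e-09). PEO1 was at 7.10, 7.18 and 7.13 and PEO4 at 7.30, 7.47 and 7.41, a small log2FC of 0.26 (FDR = 0.0247). That call was lost without PEO1 replicate 1 (FDR = 0.0716), PEO1 replicate 3 (0.055), PEO4 replicate 2 (0.0977) or PEO4 replicate 3 (0.0646), and in a fit without the variance trend (0.0506). PEA1 was at 7.81, 7.78 and 7.88 and PEA2 at 8.10, 7.91 and 8.01, so the groups were separated by 0.03 and the log2FC of 0.18 did not pass (FDR = 0.0838). The PEA value was 0.23 (FDR = 0.0488) without PEA2 replicate 2 and -0.01 after quantile normalization.

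PARP8 was the only member that fell in a resistant line. It was at 3.76, 4.56 and 4.18 in A2780 and at 3.42, 3.46 and 3.67 in CP70, and the log2FC was -0.65 (SE 0.19, FDR = 0.00975). Without A2780 replicate 2, the highest of its group, it was -0.45 (FDR = 0.0702). It rose in PEO4, from 3.89, 4.02 and 4.21 to 5.0, 5.18 and 5.01, a log2FC of 1.02 (FDR = 0.000206). In the PEA pair, PEA1 (5.14, 5.25 and 5.28) and PEA2 (5.37, 5.04 and 4.90) overlapped and the log2FC was -0.12 (FDR = 0.607).

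**Figure D3:**
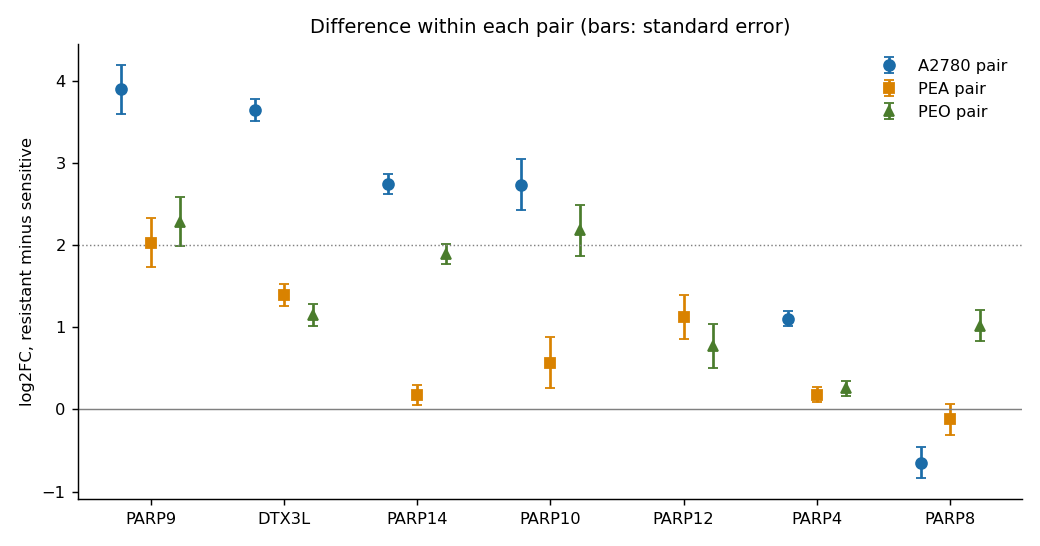
Log2FC, resistant minus sensitive (y axis), of each member (x axis) in the A2780 pair (blue circles), the PEA pair (orange squares) and the PEO pair (green triangles), with whiskers of 1 standard error and dotted line at 2. Values ran from -0.65 for PARP8 in the A2780 pair to 3.90 for PARP9 in the same pair, and PARP12 has no A2780 value because both lines had 0 reads.

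Among the 5 tested members, 4 had reads in the A2780 pair and all 4 passed the FDR of 0.05, 3 higher in CP70 (PARP14, PARP10 and PARP4) and 1 lower (PARP8). Of all genes, 39.9% passed in that pair, 22.2% higher and 17.7% lower. In the PEA pair, 1 of 5 passed (PARP12, higher), against 61.9% of all genes, 32.5% higher and 29.4% lower. In the PEO pair, 5 of 5 passed and were higher in PEO4, against 41.5% of all genes, 19.6% higher and 21.9% lower. The PEA count lay below the share over all genes, and it was 2 with voom weights or with each pair fitted alone. Leaving out 1 library changed the PEA count to 3 (PEA2 replicate 2) and the PEO count to 3 (PEO1 replicate 1, PEO1 replicate 3 or PEO4 replicate 3).

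With a log2FC above 2 either way as well, the threshold the study used for differential expression, 2 of the tested members remained in the A2780 pair (PARP14 and PARP10) against 9.06% of all genes (5.66% higher and 3.40% lower). In the PEA pair 0 remained, against 14.1% (7.93% higher and 6.15% lower), and in the PEO pair 1 remained (PARP10), against 6.22% (2.86% higher and 3.37% lower). The resistant libraries of PARP8 lay below all sensitive ones in the A2780 pair, as did those of 25.9% of all genes. The shares of genes lower without overlap were 30.8% for the PEA lines and 29.8% for the PEO lines, and no member was among them.

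The difference between pairs was itself tested for the 5 members, giving 13 differences, of which 9 passed. PARP14 differed in all 3 comparisons of pairs, PARP10 and PARP4 in 2 each, PARP8 in 2 and PARP12 in 0 of the 1 that could be tested. Of all genes, 57.5% passed for the A2780 pair against the PEA pair, 47.5% for A2780 against PEO and 58.7% for PEA against PEO. PARP10 in the A2780 and PEO pairs did not pass (difference 0.56, FDR = 0.315), nor did PARP4 in the PEA and PEO pairs (-0.08, FDR = 0.62), PARP8 in the A2780 and PEA pairs (-0.53, FDR = 0.0991) or PARP12 in the PEA and PEO pairs (0.35, FDR = 0.447). The PARP4 difference passed after quantile normalization (-0.30, FDR = 0.0359), and the PARP8 difference passed without A2780 replicate 1 (-0.73, FDR = 0.0193). The PARP10 difference turned to -0.78 after quantile normalization and was -0.001 without A2780 replicate 1, and did not pass in either.

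Per kilobase of merged exons, PARP4 had the highest level of the 7 members in A2780 (16.9 ± 1.9 CPM per kb, SD, n = 3), CP70 (36.4 ± 2.1), PEA1 (37.5 ± 1.4) and PEO1 (23.3 ± 0.6). DTX3L was highest in PEA2 (44.8 ± 5.2 CPM per kb), beside PARP4 at 42.5 ± 2.7, and PARP14 was highest in PEO4 (39.9 ± 3.4). Over the length of the longest transcript, PARP4 passed DTX3L in PEA2 (47.3 against 44.8 CPM per kb). In A2780, DTX3L was at 0.68 CPM per kb and PARP9 at 0.16, both far below PARP4. In PEO4, DTX3L and PARP14 stood above PARP4 (27.8 ± 1.6 CPM per kb), while PARP9 at 22.4, PARP10 at 20.4 and PARP12 at 7.77 stood below it. Over the longest transcript PARP10 moved above PARP4 in PEO4 (35.03 against 30.89 CPM per kb). Both kinds of length came from GENCODE, whereas the study counted reads over hg19 genes taken from UCSC. The order of members within a line therefore depends on the lengths used.

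Genes around PARP9 were examined to see whether the locus moved as a block. Of 11 other genes with a start within 1 Mb of the PARP9 start, 1 was higher and 1 lower in CP70 at an FDR below 0.05, with a median log2FC of -0.06. In PEO4, 1 was higher and 2 were lower, with a median of 0.39. In PEA2, 7 were higher and 0 lower, with a median of 1.10. The shares over all genes were 22.2% higher and 17.7% lower in CP70, 19.6% and 21.9% in PEO4, and 32.5% and 29.4% in PEA2. KPNA1, an importin gene and the nearest of these to PARP9, had log2FCs of -0.06 (FDR = 0.754), 1.10 (3.96e-07) and -0.61 (0.000765) in the A2780, PEA and PEO pairs. DIRC2, a transporter-like gene beyond PARP14, rose in CP70 (1.65, FDR = 1.45e-05, and 0.87 after quantile normalization) and in PEA2 (1.32, FDR = 0.000102), and its PEO value was 0.47 (FDR = 0.131). PDIA5, a protein disulfide isomerase, rose in PEA2 (1.63, FDR = 4.38e-08). ILDR1, singled out after its value was seen, had the largest PEA log2FC of the region, 4.98 (FDR = 6.43e-10).

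**Figure D4:**
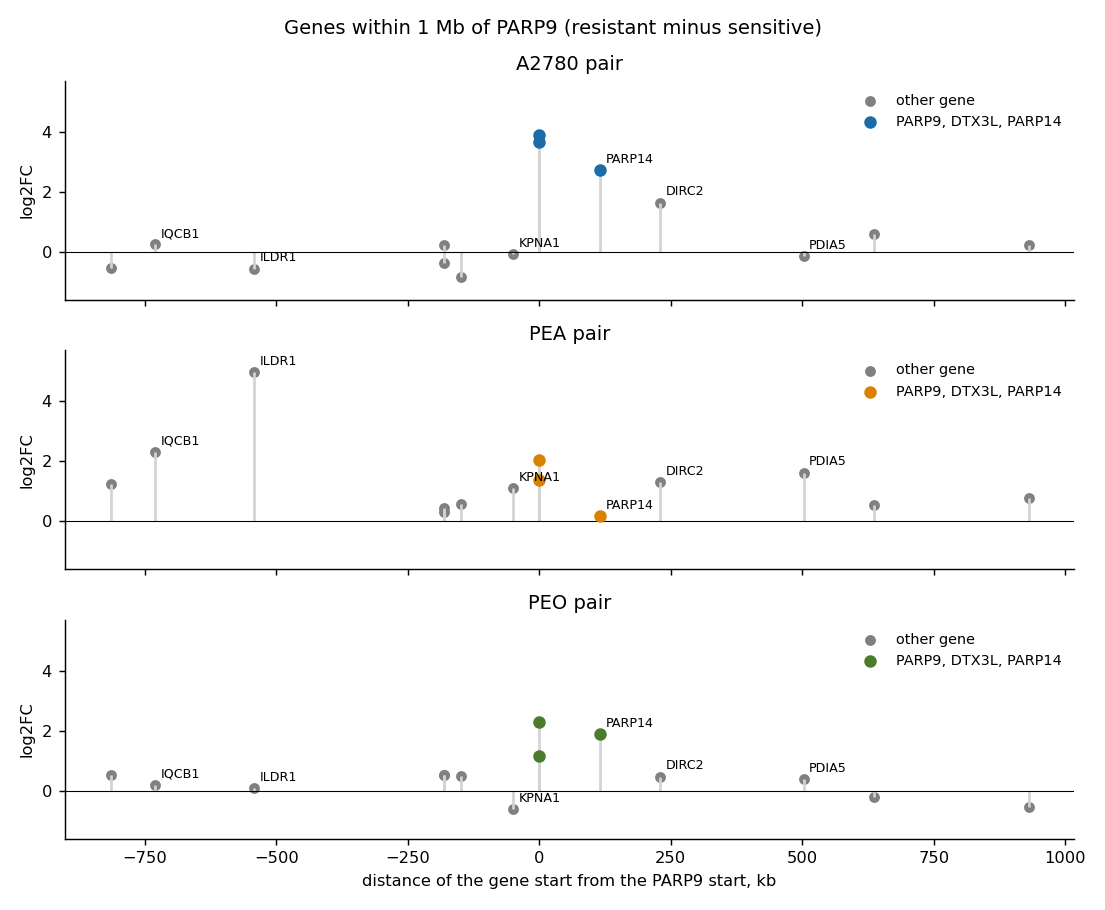
Log2FC, resistant minus sensitive (y axis), of the genes whose start lies within 1 Mb of the PARP9 start (x axis, distance in kb), in 3 panels for the 3 pairs, with PARP9, DTX3L and PARP14 in colour and other genes in grey. In the A2780 pair PARP9, DTX3L and PARP14 stand above the 11 others, whose largest value is 1.65, and in the PEA pair ILDR1 at 4.98 and IQCB1 at 2.31 stand above them.

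The rest of the ADP-ribosyltransferase family did not share a direction. Of 11 listed genes 10 were in the table; 3 were higher and 2 lower in CP70, 3 higher and 3 lower in PEA2, and 3 higher and 2 lower in PEO4. The list medians were -0.01, -0.13 and 0.39, against -0.03, 0.01 and -0.02 over all genes. The shares over all genes were 22.2% higher and 17.7% lower in CP70, 32.5% and 29.4% in PEA2, and 19.6% and 21.9% in PEO4. PARP11, a mono-ADP-ribosyltransferase, fell in CP70 (log2FC -1.71, FDR = 1.66e-06) and rose in PEO4 (0.72, FDR = 0.00983). Its PEA value was -0.59 (FDR = 0.0224), a call lost without PEA1 replicate 2 or 3 or PEA2 replicate 3 (FDR = 0.0558, 0.111 and 0.12) and in other fits. TIPARP, which the aryl hydrocarbon receptor induces, rose in PEA2 (1.75, FDR = 7.9e-09) and fell in PEO4 (-1.39, FDR = 5.24e-07), while its CP70 value was 0.12 (FDR = 0.578). Without A2780 replicate 1 or 2 or CP70 replicate 2 or 3, 3 of these genes passed in the A2780 pair, and without PEO1 replicate 2, 3 passed in the PEO pair.

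**Figure D5:**
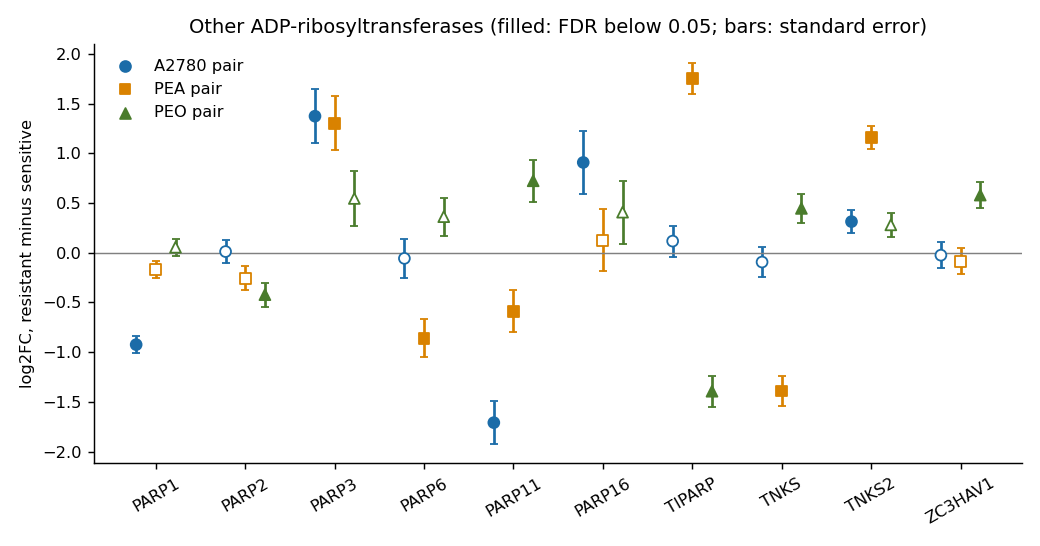
Log2FC, resistant minus sensitive (y axis), of the 10 other ADP-ribosyltransferase genes in the table (x axis) in the A2780 (blue circles), PEA (orange squares) and PEO (green triangles) pairs, filled where the FDR was below 0.05 and with whiskers of 1 standard error. The values scatter on both sides of 0, from -1.71 for PARP11 in the A2780 pair to 1.75 for TIPARP in the PEA pair.

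Of the Deltex ubiquitin ligases related to DTX3L, 3 of 4 were in the table. DTX4 rose in all 3 resistant lines, with log2FCs of 1.20 (FDR = 1.07e-05), 1.74 (FDR = 3.85e-08) and 1.38 (FDR = 2.17e-06) in the A2780, PEA and PEO pairs. It is named here for passing in all 3 pairs, and 1.59% of all genes were higher in every resistant line at an FDR below 0.05. DTX3 fell in PEA2 (-2.45, FDR = 1.33e-06) and had values of -0.42 (FDR = 0.312) and 0.04 (FDR = 0.94) in the A2780 and PEO pairs. Over the list, 1 was higher and 0 lower in CP70, 2 higher and 1 lower in PEA2, and 1 higher and 1 lower in PEO4. Over all genes, 22.2% were higher and 17.7% lower in CP70, 32.5% and 29.4% in PEA2, and 19.6% and 21.9% in PEO4.

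Hydrolases and readers that remove or recognise ADP-ribose were in the table for 11 of 15 listed genes. In CP70, 2 were higher and 2 lower, in PEA2 3 higher and 4 lower, and in PEO4 2 higher and 2 lower. Over all genes, 22.2% were higher and 17.7% lower in CP70, 32.5% and 29.4% in PEA2, and 19.6% and 21.9% in PEO4. MACROD2, which removes single ADP-ribose units, was expressed well in the PEA pair, where its log2FC was -1.57 (FDR = 0.0333). That call was lost when any 1 of PEA1 replicates 1 and 3 and PEA2 replicates 1, 2 and 3 was left out (FDR 0.0612 to 0.0818). It held in 8 of 13 alternatives, with a lowest FDR of 1.95e-08, and the SDs were 0.20 in PEA1 and 0.07 in PEA2. In the A2780 and PEO pairs MACROD2 had at most 4 and 10 reads in a library. Its values there (1.69 and -1.83), which are counted above, are not read as changes.

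Interferon receptors and the STAT and IRF factors downstream of them were in the table for 12 of 13 listed genes. In CP70, 5 were higher and 3 lower, in PEA2 3 higher and 2 lower, and in PEO4 6 higher and 1 lower. The medians were 0.41, 0.03 and 0.55. Among all genes, 22.2% were higher and 17.7% lower in CP70, 32.5% and 29.4% in PEA2, and 19.6% and 21.9% in PEO4. IRF1, a factor that binds ISRE elements, rose in CP70 (2.01, FDR = 8.94e-07, and 1.37 after quantile normalization) and in PEO4 (0.90, FDR = 0.00512), and its PEA value was 0.03 (FDR = 0.925). STAT2, a factor of the type I interferon response, fell in CP70 (-1.05, FDR = 7.93e-06) and rose in PEA2 (0.70, FDR = 0.000397) and PEO4 (1.52, FDR = 8.5e-08). IFNAR2, a chain of the type I interferon receptor, fell in PEA2 (-0.93, FDR = 0.00559), and its values in the A2780 and PEO pairs were 0.67 (FDR = 0.0557) and 0.65 (FDR = 0.061). Both IFNAR2 values passed in other fits, for example at an FDR of 0.0278 and 0.0422 with each pair fitted alone.

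The genes whose level across the 18 libraries was most like that of a member were taken from 12491 genes by Pearson's r, as a description over 6 lines of 3 libraries each. The ranking changed over the 6 line means, where 1 of the 5 genes for PARP9, 1 of 5 for DTX3L, 0 of 3 for PARP14 and 2 of 3 for each other member were again among the first. For PARP9 they were MYO6 (r = 0.97), EFNA5 (0.97), HERC6 (0.96), FAM83H (0.95) and ZNFX1 (0.95). For DTX3L they were APOL6 (0.99), WIPI1 (0.98), NCOA3 (0.98), MYOF (0.98) and SP100 (0.98). PARP14 was most like ADD3 (0.98), APOL6 (0.97) and CDK19 (0.97), and PARP10 like EFNA5 (0.99), TFAP2A (0.99) and IFIH1 (0.99). PARP12 was most like CCNJL, HKDC1 and RAPGEF5 (0.998, 0.997 and 0.997), which like PARP12 are at the 0 read level in A2780 and CP70. PARP4 was most like COL12A1 (0.97), MICB (0.96) and CD97 (0.96), and PARP8 like C12orf23 (0.96), GLI3 (0.95) and TTC17 (0.94). APOL6 and EFNA5 appeared for 2 members each. Between members, r was 0.92 for PARP9 and PARP14, 0.95 for PARP9 and PARP10, and 0.97 for DTX3L and PARP14, but 0.59 for PARP9 and PARP4 and 0.46 for PARP9 and PARP8.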

How the data were processed

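Total RNA depleted of rRNA was sequenced from 6 ovarian cancer cell lines in 3 replicates each. Per the labels and methods, the authors prepared strand-specific libraries, aligned reads to hg19, counted them per gene with featureCounts and normalized them with limma. The submitters' processing notes also name Bowtie2. The deposited values are log2 CPM for 12853 genes, computed by the authors after 0.5 was added to every read count. Undoing this gave whole reads (tolerance 0.05) for 100% of values in each library, which gives the depth. Replicates differed by more than sampling noise (chi-square per degree of freedom 1.74 to 13.5).

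The log2 values were fitted with limma 3.58.1 (R 4.3.3), with a mean per line over all 18 libraries and a variance trend. Benjamini-Hochberg adjustment was over all genes, and an FDR below 0.05 was called passed. The script was tested on simulated data. Some listed genes are not reported here by name, and counts over whole lists include them. Members and gene lists were chosen with earlier results of these data known. Named genes were the 7 members, list genes that passed in the same direction in all pairs or had the largest passing change in a pair with more than 3 reads in some library, and the genes most correlated with each member (5 for PARP9 and DTX3L, 3 for the others, mean log2 value above 0). Gene spans, exon lengths and transcript lengths came from GENCODE on GRCh37, and promoter windows from RefSeq on GRCh38.p14. Alternatives were each pair fitted alone, a low-value filter, quantile normalization, a replicate block, no trend, other thresholds, 2 reads added, voom weights and leaving out each library. A log2FC above 2 as a threshold for counts was added after seeing the data.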

Additional observations from a re-analysis of the deposited data

Results flagged for a closer look

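The log2FC of 4 members differed between pairs of lines by a test of the difference itself (limma, FDR below 0.05 over all genes). For PARP14 the A2780 pair exceeded the PEA pair by 2.56 (FDR = 2.43e-10) and the PEO pair by 0.85 (FDR = 0.000464), and the PEA value minus the PEO value was -1.71 (FDR = 7.78e-08). PARP10 gave 2.17 for the A2780 pair minus the PEA pair (FDR = 0.000309; 0.97 after quantile normalization) and -1.61 for the PEA pair minus the PEO pair (FDR = 0.00398). PARP4 gave 0.93 for the A2780 pair minus the PEA pair (FDR = 3e-06) and 0.85 for the A2780 pair minus the PEO pair (FDR = 1.25e-05). For PARP8 the A2780 pair minus the PEO pair was -1.67 (FDR = 3.64e-05), with PARP8 lower in CP70 and higher in PEO4, and the PEA pair minus the PEO pair was -1.14 (FDR = 0.0012). These 9 differences passed under each alternative that gave a test of them. Their cause was not tested. The summed epithelial markers differed widely within the A2780 and PEA pairs and little within the PEO pair.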

How the results depend on the processing

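Among 182 member log2FCs recomputed under alternatives, 167 kept their call, 11 no longer passed, 4 newly passed and 0 reversed. The genes that passed fell to 2470, 4320 and 2418 in the A2780, PEA and PEO pairs with a log2FC above 1 either way as well, and to 1165, 1809 and 800 with one above 2. With a log2FC above 2, 2, 0 and 1 tested members remained. In the PEA pair 2 members passed with voom weights and 2 with each pair fitted alone, and in the PEO pair 3 passed with a log2FC above 1 and 3 at an FDR below 0.01. Leaving out 1 library gave 3 to 4 members in the A2780 pair, 1 to 3 in the PEA pair and 3 to 4 in the PEO pair. The cause was not tested. Quantile normalization moved the median log2FC of all genes in the PEA pair from 0.01 to -0.10, and lowered PARP9 and DTX3L in the A2780 pair to 2.64 and 3.02. Same-numbered replicates did not deviate together (correlations -0.0382 to 0.0782), so no pairing by number was seen in the values. Whether they were grown or prepared together is not in the labels and cannot be told from this check. The replicate block gave 4, 1 and 5 members passed and 5056, 7918 and 5285 genes, changing no member call. Depth limits PARP9 and PARP10 in A2780, with at most 6 and 4 reads per library, and PARP12 in A2780 and CP70.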

Other observations

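NAD is the substrate of catalytically active PARPs, and 8 of 12 listed enzymes of its synthesis and use were in the table. In CP70 0 were higher and 3 lower, in PEA2 4 higher and 2 lower, and in PEO4 4 higher and 1 lower at an FDR below 0.05. The median log2FCs were 0.06, 0.77 and 0.87. Among all genes, 22.2% were higher and 17.7% lower in CP70, 32.5% and 29.4% in PEA2, and 19.6% and 21.9% in PEO4. QPRT, which makes NAD precursor from quinolinate, fell in CP70 (-2.20, FDR = 1.12e-10) and rose in PEA2 (0.64, FDR = 0.000695) and PEO4 (1.70, FDR = 1.23e-08). NNMT, which methylates nicotinamide, fell in PEA2 (-2.61, FDR = 5.87e-06) and rose in PEO4 (1.77, FDR = 0.000773, and 2.78 after quantile normalization), and had at most 1 read in any A2780 or CP70 library. NMNAT2, an NAD-synthesizing enzyme best known in neurons, rose in PEO4 (2.36, FDR = 0.000297).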
